A study of Bombus terrestris with 8 samples.

Results

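Broad constant regions are stretches of open chromatin on the placed chromosomes of the buff-tailed bumblebee, *Bombus terrestris*, that were detected at every developmental stage and spanned at least 1000 bp. Open chromatin of the whole body was assayed by ATAC-seq in workers taken as eggs, larvae, pupae and adults, and each stage had 2 samples. An adult sample was a single worker and a sample of the other stages was a pool that matched an adult in volume, with the animals taken from several colonies, so a peak may come from any of the cell types of the body, and fewer cells with an open site cannot be told apart from a less open site in each cell. No animal carried a mutation or received a treatment. The regions were selected on the peak lists themselves. Distinct intervals of the 8 lists on the 18 placed chromosomes of the Bter_1.0 assembly were merged where they shared at least 1 bp, which gave 52844 regions. An interval from all 8 lists was present in 4880 of them, and 1537 of these, which is 31.5% of the 4880 and 2.91% of all regions, spanned 1000 bp or more. Presence in every sample and span are therefore properties of the selection, not findings, and the same holds for what follows directly from them. The remaining 3343 regions found in all 8 lists, here called narrow constant regions, serve as the comparison.

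In ATAC-seq a transposase inserts adaptors where DNA is not wrapped in nucleosomes, and the local maxima of the insertions, called summits, mark the most accessible points of a peak. In insects as in other animals, promoters of widely used genes tend to be accessible in most tissues, while enhancers are more often accessible in particular cells or at particular times. A wide accessible region can hold several such elements side by side, with nucleosomes between them. Genes and sequence of Bter_1.0 were not used here, so the regions are given by position and not by gene, and no region is called a promoter or an enhancer.

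The libraries were not equal, and this bears on each result below. The 2 larval lists held 17073 and 12331 distinct intervals, against 27135 to 37502 in the other 6, and they limited which regions could be constant. Without the larval samples 1924 broad regions were found in all remaining lists. The longest list, that of pupa replicate 2, alone reached furthest on 1295 outer ends of the regions (42.1% of all ends), more than any other library, whereas adult replicate 2 did so on 579 (18.8%) and the 2 larval libraries on 46 and 43. In 178 of the 1537 regions the outer ends of the intervals from the lists other than pupa replicate 2 lay less than 1000 bp apart. Such a region may also fall apart where only pupa replicate 2 joined its intervals. When the intervals were merged again without that list, 1259 broad regions were found in all remaining lists. The span is thus to a large part the reach of pupa replicate 2 and adult replicate 2. Depth under a single peak is unknown because the lists hold no reads. Nor were the 2 samples of a stage always most like each other. By the order of fold enrichment over the broad regions, egg replicate 1 was most like pupa replicate 1 and egg replicate 2 was most like adult replicate 2. Larva replicate 1 was most like adult replicate 1, with a Spearman correlation of 0.752 against 0.739 with larva replicate 2.

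The median span was 1247 bp, with quartiles of 1107 and 1456 bp, and all regions together covered 2.05 Mb. There were 327 regions of 1500 bp or more, and the widest 10% started at 1753 bp. At the lower limit the distribution was continuous, with 465 constant regions of 900 to 999 bp and 366 of 1000 to 1099 bp. Just inside lay 3 regions of exactly 1000 bp, NC_015768.1 from 8297247 to 8298246, NC_015769.1 from 271268 to 272267 and NC_015771.1 from 8600745 to 8601744. Just outside lay NC_015767.1 from 920012 to 921010 and NC_015777.1 from 2521989 to 2522987, both of 999 bp, and NC_015775.1 from 9316958 to 9317955, of 998 bp. Best fold enrichment, which is the signal at the strongest summit over the background of the same library around it, ran from 3.03 to 10.6 over the 8 lists in the former 3 and from 3.21 to 11.0 in the latter 3, so that these examples overlapped across the limit.

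Few of the regions were equally wide in every sample. A single interval of at least 1000 bp was found in all 8 lists for 70 regions (4.55%), and in no list for 142 regions (9.24%), whose span came only from joining shorter intervals of different samples. The bases covered in all 8 lists, taken here as the core of a region, amounted to a median of 508 bp or 39.8% of the span, and 101 regions had a core of 1000 bp or more. Of all bases in the regions, 41.0% were covered in all 8 lists and 9.39% in only 1. The corresponding values for narrow constant regions, 46.1% and 9.42%, show that wide and narrow regions had a shared core and a variable rim in similar proportions.

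The 5 widest regions had between 43 and 50 summits over the 8 lists. The widest, NC_015768.1 from 17632644 to 17636030 (3387 bp), also had the most summits. It held 5 and 7 in the egg samples, 5 and 6 in the larval samples, 6 and 7 in the pupal samples and 6 and 8 in the adult samples. Every list thus divided this region into at least 5 maxima, and its strongest summits in the 8 samples fell within 133 bp of each other. The others were NC_015764.1 from 11185678 to 11189004 (3327 bp), NC_015778.1 from 1964197 to 1967258 (3062 bp), NC_015775.1 from 8432821 to 8435871 (3051 bp) and NC_015768.1 from 310808 to 313653 (2846 bp). In the first 3 of these 4 the strongest summit moved by 1149, 2198 and 2246 bp between samples, and in the last by 80 bp. The region on NC_015764.1 had 46 summits over the 8 lists, and the same number was called in NC_015762.1 from 12445315 to 12447693 (2379 bp), which had 5 to 7 summits per sample, a core of 78.6% of the span and all strongest summits within 22 bp. The widest region was not a strong one, with a fold enrichment between 3.07 and 4.78. Across the 1537 regions the Spearman correlation of span with best fold enrichment lay between -0.0900 and 0.0534 in the 8 lists, a description over regions that share libraries and are not independent replicates. With the number of summits it lay between 0.346 and 0.540.

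The covered share of a region, which is the part of its span under a peak of a given sample, was lowest in the larva. Averaged over the 1537 regions it was 66.9% and 78.3% in the egg samples, 56.5% and 50.6% in the larval samples, 76.8% and 90.6% in the pupal samples and 71.5% and 83.8% in the adult samples. Both larval values lay below the other 6. By stage this was 72.6% ± 8.06 for egg, 53.6% ± 4.17 for larva, 83.7% ± 9.72 for pupa and 77.7% ± 8.67 for adult samples (mean ± SD, n = 2 each). The egg, pupa and adult overlapped in their replicates, and their differences were of the size of the spread between 2 samples of a stage. In larva replicate 2, 771 regions (50.2%) were covered over less than 50% of their span, against 53 regions (3.45%) in pupa replicate 2. Narrow constant regions gave the same order of stages, with 77.1% ± 6.16, 60.6% ± 4.69, 85.2% ± 5.94 and 78.1% ± 5.19 (mean ± SD, n = 2 each) from egg to adult. The covered share was lowest in the 2 shortest lists and highest in the longest, while egg replicate 1, with the second longest list (33612 intervals), had the third lowest share. The part of list length in it was not tested.

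**Figure D1:**
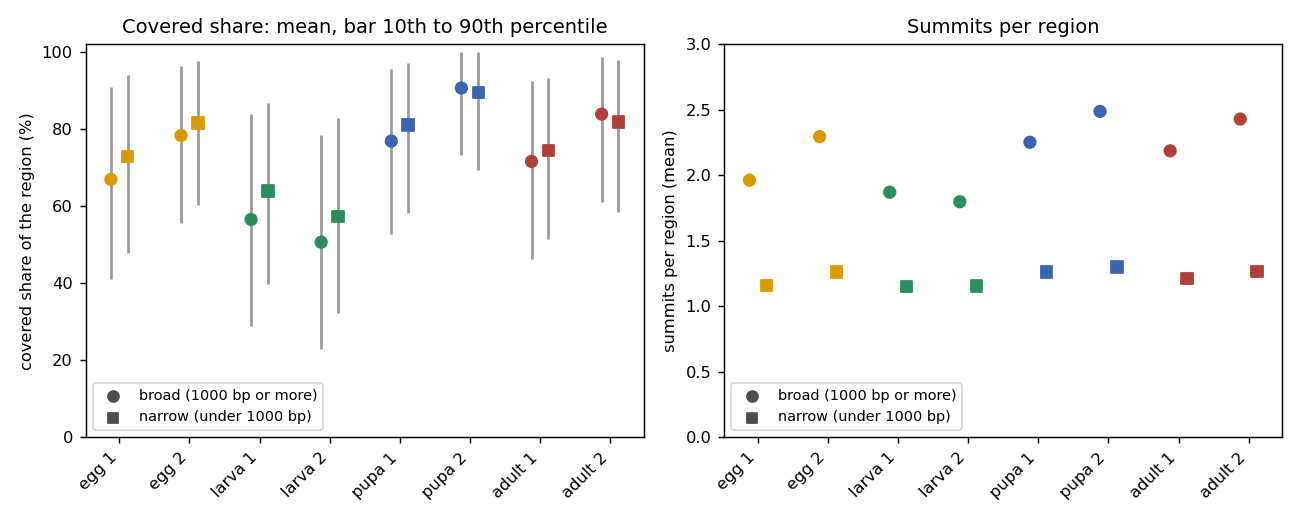
Covered share (left, % of the span, mean with a bar from the 10th to the 90th percentile of the regions) and mean number of summits per region (right) in each of the 8 samples, for broad constant regions (circles) and narrow constant regions (squares), coloured by stage. The larval circles lie lowest on both panels, at 56.5% and 50.6% covered and 1.87 and 1.80 summits.

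Cover fell with distance from the strongest summits, and faster in the larva. When the regions were aligned at the median position of their 8 strongest summits, between 95.8% (larva replicate 2) and 99.5% (egg replicate 2) of them were covered at that point, a value that the selection and the alignment nearly fix. At 300 bp downstream of it along the assembly, cover was 41.9% in larva replicate 2 and 47.2% in larva replicate 1, between 57.1% and 75.2% in the egg and adult samples, and 71.3% and 82.9% in the pupal samples. At 500 bp the larval samples were at 20.7% and 24.5% and pupa replicate 2 at 59.8%. Both sides were alike, with 41.6% in larva replicate 2 and 82.8% in pupa replicate 2 at 300 bp upstream. At both distances the larval samples were lowest and pupa replicate 2 was highest.

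**Figure D2:**
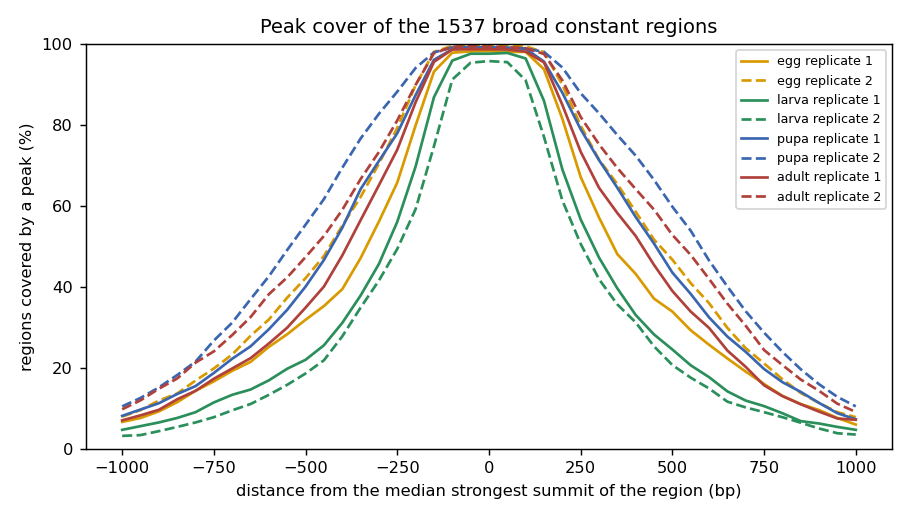
Percentage of the 1537 broad constant regions covered by a peak (vertical axis) against the distance in bp from the median strongest summit of the region (horizontal axis), 1 line per sample, with replicate 1 solid and replicate 2 dashed. All lines exceed 95% at the centre, and at 500 bp they spread from 20.7% in larva replicate 2 to 59.8% in pupa replicate 2.

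Summits were also fewest in the larva, but not relative to the covered length. A region held 1.96 and 2.29 summits on average in the egg samples, 1.87 and 1.80 in the larval samples, 2.25 and 2.49 in the pupal samples and 2.19 and 2.43 in the adult samples. By stage this was 2.13 ± 0.235 for egg, 1.83 ± 0.0515 for larva, 2.37 ± 0.167 for pupa and 2.31 ± 0.171 for adult samples (mean ± SD, n = 2 each), and both larval values lay below the other 6. Per kb under a peak the order turned, with 2.48 and 2.67 summits in the larval samples against 2.06 to 2.29 in the other 6. Narrow constant regions held 1.15 to 1.30 summits per region, and the larva was again highest per covered kb, at 2.83 ± 0.225 (SD, n = 2). At least 2 summits were called in every list for 543 broad regions (35.3%), at least 3 for 104, and exactly 1 in every list for 29. Within 1 interval, neighbouring summits lay a median of 305 to 381 bp apart in the 8 lists.

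To follow single summits across samples, summits of the 8 lists were chained where they lay within 100 bp of the next, a rule set after the data were seen. The regions then held 5095 summit groups, with a median of 3 and at most 10 per region. A summit of all 8 samples was present in 1870 groups (36.7%), and 914 groups (17.9%) rested on 1 sample. Such a fully shared group had a median width of 56 bp. Exactly 1 fully shared group was found in 988 regions (64.3%), 2 in 338, 3 or more in 66, and none in 145 (9.43%). The most was 5. Where a region held several, neighbouring ones lay a median of 463.5 bp apart, with quartiles of 350 and 633 bp over 478 spacings. Between 49.4% of the summits (pupa replicate 2) and 69.3% (larva replicate 2) belonged to fully shared groups, with 66.2% in larva replicate 1, 62.8% in egg replicate 1 and 50.6% to 56.6% in the other 4 samples. A fully shared group holds a summit of every sample, so a list with fewer summits has a higher share nearly by construction. The regions held 2762 summits in larva replicate 2 and 3821 in pupa replicate 2. Of the 5095 groups, few had a summit in both samples of a single stage and in no other sample, namely 15 for egg, 23 for larva, 74 for pupa and 47 for adult. No such count was formed for narrow constant regions. The lists also differed in their number of summits, so these counts do not compare the stages.

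Broad constant regions were strong peaks in most lists. A within-file percentile was formed by ranking the best fold enrichment of a region among all distinct intervals of the same list, unplaced contigs included. The median percentile over the regions was 82.6 and 83.8 in the egg samples, 70.4 and 62.3 in the larval samples, 84.3 and 86.9 in the pupal samples and 84.0 and 86.7 in the adult samples. Both larval values lay below the other 6. In the larval lists 1.82% and 0.195% of the regions were in the top 10%, whereas in the other lists 23.8% to 39.6% were. With intervals of placed chromosomes alone as the reference, the larval mean rose from 66.3 ± 5.71 (SD, n = 2) to 79.2, and those of the other stages lay between 88.1 and 89.99. Ranked by −log10 (P value) in place of fold enrichment the medians were 86.7 and 89.8 in the egg samples, 73.4 and 63.8 in the larval samples, 88.5 and 93.0 in the pupal samples and 87.7 and 89.98 in the adult samples. Narrow constant regions ranked lower, with stage means of 78.6, 55.4, 80.3 and 79.2 from egg to adult. The best value of a broad region was taken over more summits, 1.80 to 2.49 on average against 1.15 to 1.30. The part of this in the gap between the sets was not tested. Both sets were chosen by presence in every list, which favours strong peaks, so these percentiles are a description.

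The fold enrichment itself had medians of 6.78 and 7.07 in the egg samples, 5.48 and 4.89 in the larval samples, 6.42 and 5.57 in the pupal samples and 6.54 and 5.21 in the adult samples. These values are not normalized between libraries. The larval values overlapped the adult ones, whose replicates differed by more than the larval ones. In all 8 lists 962 regions (62.6%) were above the median interval, against 37.8% of the narrow constant regions, and 265 (17.2%) were in the upper quartile in all 8. Among the 6 lists without the larva, 1283 (83.5%) were above the median.

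**Figure D3:**
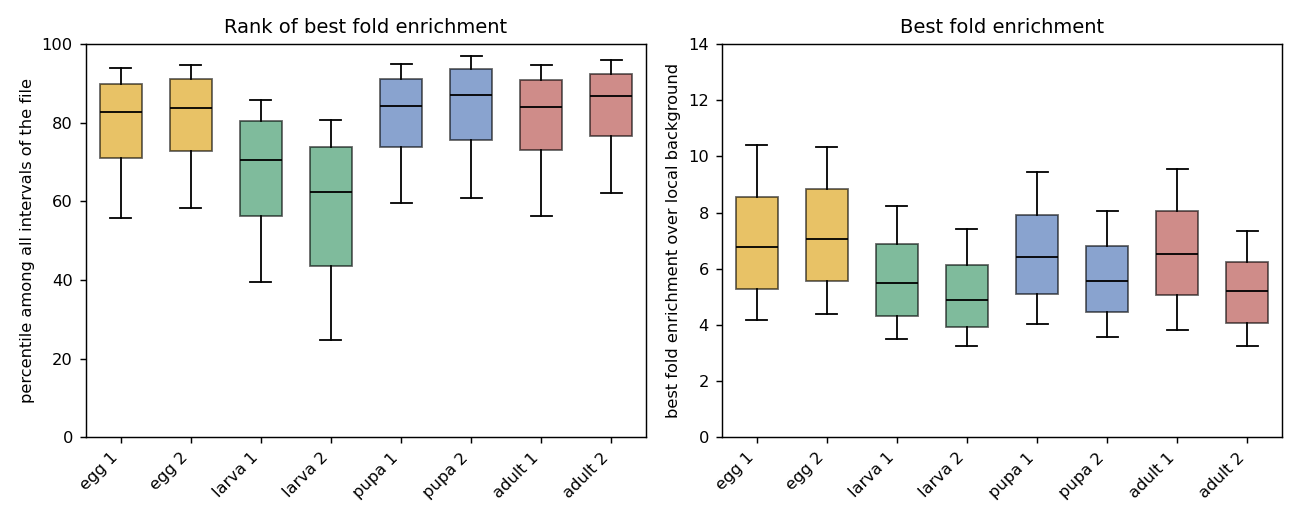
Boxes show the 1537 broad constant regions in each sample by the percentile of their best fold enrichment among all intervals of the same list (left) and by the best fold enrichment over the local background (right), with the median, quartiles and whiskers at the 10th and 90th percentile. The larval medians of 70.4 and 62.3 lie below the other medians on the left, whereas on the right the median of larva replicate 1 (5.48) exceeds that of adult replicate 2 (5.21).

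The 5 regions with the highest lowest percentile were strong in every sample. At NC_015764.1 from 6633270 to 6634279 (1010 bp), fold enrichment was 15.5 and 13.8 in the egg samples, 13.5 and 15.1 in the larval samples, 13.0 and 9.60 in the pupal samples and 12.3 and 10.3 in the adult samples. Its percentile was 94.4 or higher in all lists, its core took up 90.4% of the span, and its strongest summits lay within 48 bp. All pupal and adult values were below the egg and larval ones, which overlapped. At NC_015765.1 from 9299051 to 9300962 (1912 bp), fold enrichment was 16.5 and 14.9 in the egg samples, 13.2 and 11.5 in the larval samples, 13.1 and 11.1 in the pupal samples and 16.3 and 9.31 in the adult samples. Here the strongest summits of all 8 samples lay within 13 bp, and 3 to 5 summits were called per sample. Adult replicate 1 was the second highest of the samples and adult replicate 2 the lowest, so no stage stood apart. At NC_015773.1 from 248771 to 249827 (1057 bp), a single summit was called in every sample, with a fold enrichment of 9.88 and 10.2 in the egg samples, 10.5 and 11.3 in the larval samples, 8.97 and 6.78 in the pupal samples and 11.4 and 8.46 in the adult samples. The others were NC_015766.1 from 8511761 to 8513129 (1369 bp), with fold enrichment between 8.47 and 11.6, and NC_015772.1 from 14693961 to 14695040 (1080 bp), with 5.80 to 13.6.

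Whether the regions, though present everywhere, still differed by stage was asked in 3 ways. The selection treats the 8 lists alike, but the lists were unequal, so it does not bear equally on the stages. The larval lists limited which regions could be constant. Pupal samples alone reached furthest on 51.6% of the outer ends, and larval samples on 2.90%. How far this enters the 3 comparisons was not tested. The covered bases are moreover those of the intervals that the selection merged, and the Jaccard index is bounded by the unequal covered shares of the lists. The part of list length in it was not tested. For every pair of samples, the order of the regions by best fold enrichment was compared with Spearman's correlation, the covered bases within the regions with the Jaccard index (bases covered in both samples over bases covered in either), and the position of the strongest summit by the mean distance. The mean over the 4 pairs of the same stage was then set against the mean over the 24 pairs of different stages with a one-sided exact permutation test, in which the 8 samples were divided into 4 pairs in every possible way. The correlation was 0.800 ± 0.0889 (SD, n = 4 pairs) within stages and 0.663 ± 0.115 (SD, n = 24 pairs) between stages, a difference of 0.137 (exact permutation p = 0.0190, adjusted over the 3 tests 0.0190). The Jaccard index was 0.777 ± 0.0432 (SD, n = 4 pairs) within and 0.702 ± 0.0806 (SD, n = 24 pairs) between stages, a difference of 0.0747 (exact permutation p = 0.00952, adjusted 0.0143). Because this index is drawn from the intervals that chose and bounded the regions, its p is given as a description only. The strongest summits lay 88.3 ± 24.5 bp (SD, n = 4 pairs) apart within and 106 ± 16.1 bp (SD, n = 24 pairs) apart between stages, a difference of 18.0 bp (exact permutation p = 0.00952, adjusted 0.0143). The smallest p that this design allows is 0.00952.

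The pupal and adult pairs were more alike than the egg and larval pairs in all 3 measures. The correlation of fold enrichment was 0.902 for the adult pair and 0.845 for the pupal pair, higher than the 0.838 of the closest pair from different stages. It was 0.739 for the larval pair and 0.713 for the egg pair, and 8 of the 24 pairs of different stages exceeded the egg value. Egg replicate 1 reached 0.832 with pupa replicate 1, and egg replicate 2 reached 0.838 with adult replicate 2 and 0.816 with adult replicate 1. A pairing of egg with pupal samples by replicate number gave a larger difference, 0.147, than the pairing by stage, and for the covered bases a pairing across egg, pupa and adult gave 0.0739, close to the 0.0747 of the stages. Of the 8 samples, 5 were most like their own partner by fold enrichment, 4 by summit position and 3 by covered bases. Without both larval samples the differences fell to 0.0842 for the correlation (exact permutation p = 0.133), 0.0277 for the Jaccard index (exact permutation p = 0.0667) and 16.3 bp (exact permutation p = 0.0667). Without both egg samples the differences were 0.206, 0.109 and 26.9 bp, each with an exact permutation p of 0.0667, the smallest that 6 samples allow. The test also rests on single samples. Without pupa replicate 2, adult replicate 1 or adult replicate 2 the exact permutation p for fold enrichment was 0.0667, 0.0667 and 0.0762. For covered bases it was 0.0571 without pupa replicate 1, 0.0857 without pupa replicate 2 and 0.0762 without adult replicate 1. For the summit distance it was 0.0667, 0.0571, 0.133 and 0.114 without pupa replicate 1, pupa replicate 2, adult replicate 1 and adult replicate 2. The larva was least like the pupa, with a mean correlation of 0.497 over 4 pairs and a lowest value of 0.380 for the second replicates of both.

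**Figure D4:**
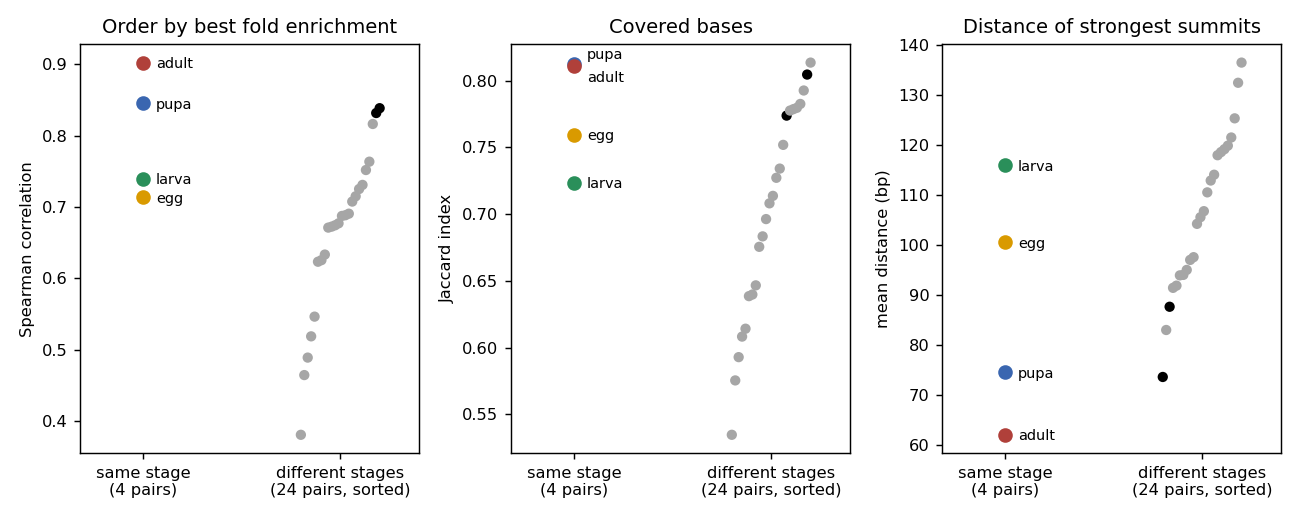
Each point is a pair of samples compared over the 1537 broad constant regions by Spearman correlation of best fold enrichment (left), Jaccard index of covered bases (middle) and mean distance in bp between strongest summits (right), with the 4 pairs of the same stage coloured by stage and the 24 pairs of different stages in grey, sorted by value. Black points are egg replicate 1 with pupa replicate 1 and egg replicate 2 with adult replicate 2, which at 0.832 and 0.838 exceed the egg pair at 0.713 on the left.

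Regions in which a stage stood apart were found by ranking the best fold enrichment of each region among the 4880 regions common to all 8 lists, so that the same regions were ranked in every sample, and by counting the regions where both samples of a stage ranked above, or below, the other 6. For the egg, 30 of 1537 broad regions ranked above, 1.95% against a background of 3.14% over the 4880 regions, and 66 ranked below, 4.29% against 3.79%. For the larva, 286 ranked above, 18.6% against 13.4%, and 139 below, 9.04% against 9.08%. In the pupa, 138 ranked above, 8.98% against 8.89%, and 139 below, 9.04% against 8.73%. In the adult, 71 ranked above, 4.62% against 5.35%, and 69 below, 4.49% against 6.02%. In 779 regions (50.7%) some stage stood apart, against 48.5% of the 4880 regions. The widest gap to the background was that of the larval ranks above, and it turned with the scale. When the percentile among all intervals of a list was used instead, 1 broad region had both larval samples above the others (background 0.123%) and 958 had both below (background 53.5%). The direction of the larval difference therefore depends on the reference of the ranking. On the same scale the other counts moved as well, to 10 for egg below (background 0.615%), 247 for pupa above (15.9%), 16 for pupa below (1.33%), 243 for adult above (13.4%) and 8 for adult below (1.5%). Ranked by −log10 (P value) among the 4880 regions, larva above was 153 (background 9.49%) and egg below 36 (2.56%). On that measure larva below was 165, for which no background share was formed. The balance of larval ranks above and below thus also depended on the measure. Leaving out a sample can only keep or raise a count of this kind, by construction. With either sample of the stage itself left out, every count rose, which therefore carries no further meaning. Samples of other stages moved 3 of the counts by more than 1.5 times. These were egg below, with 122 without pupa replicate 2, pupa below, with 230 and 209 without egg replicate 1 and 2, and adult above, with 111 without egg replicate 2 and 138 without larva replicate 2. Shares over the 4880 regions were not formed with a sample left out, so these last counts have no background beside them.

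**Figure D5:**
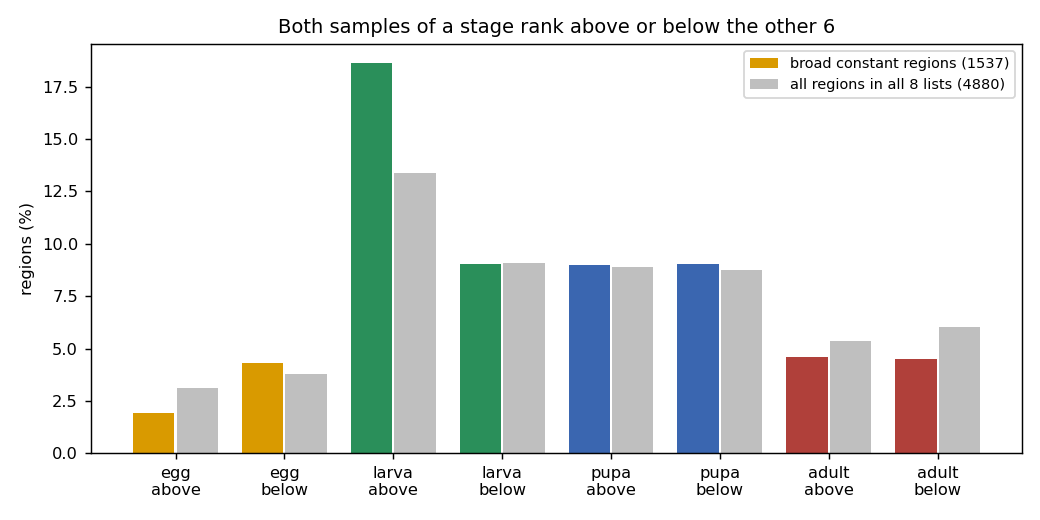
Percentage of regions (vertical axis) in which both samples of a stage ranked above or below the other 6 by best fold enrichment among the 4880 regions common to all lists, for the 1537 broad constant regions (coloured by stage) and for all 4880 (grey). The largest gap between the bars is for larval ranks above, 18.6% against 13.4%, which turns when regions are ranked among all intervals of a list.

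For each stage and direction the region with the largest gap is described, as an example chosen by its size. NC_015772.1 from 12186981 to 12187997 (1017 bp) was highest in the pupa. Fold enrichment there was 3.09 and 3.41 in the egg samples, 3.49 and 3.74 in the larval samples, 9.46 and 6.89 in the pupal samples and 4.58 and 3.90 in the adult samples. Both pupal values were above all others, and the pupal peaks also covered 90.1% and 100% of the span against 26.5% to 67.7% elsewhere. The opposite was seen at NC_015764.1 from 6891538 to 6892854 (1317 bp), with 10.8 and 9.31 in the egg samples, 9.31 and 11.96 in the larval samples, 3.63 and 4.18 in the pupal samples and 8.17 and 5.73 in the adult samples. Only the pupal values were below 5, although the strongest summits of all 8 samples lay within 56 bp.

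In the larva, the lowest region was NC_015774.1 from 6744342 to 6745398 (1057 bp). It had a fold enrichment of 7.87 and 8.75 in the egg samples, 3.51 and 2.80 in the larval samples, 9.45 and 8.37 in the pupal samples and 8.50 and 5.40 in the adult samples. The larval values were below all others on the ranks, on the percentiles and as fold enrichment. The highest larval region, NC_015777.1 from 1742700 to 1744685 (1986 bp), was higher in the larva on the ranks and as fold enrichment, but not on the percentiles. Its fold enrichment was 5.0 and 4.91 in the egg samples, 6.37 and 5.35 in the larval samples, 4.80 and 4.15 in the pupal samples and 4.93 and 3.94 in the adult samples, while its percentile among all intervals was 77.6 and 67.3 in the larva and 65.2 to 74.4 in the others, which overlap. The strongest summits of the 8 samples were spread over 1524 bp in this region, so the values compare different points of it.

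In the adult, the highest region was NC_015762.1 from 8933579 to 8934847 (1269 bp), with 4.0 and 3.45 in the egg samples, 2.96 and 3.35 in the larval samples, 4.08 and 4.0 in the pupal samples and 6.98 and 5.20 in the adult samples. The lowest was NC_015764.1 from 9148999 to 9150549 (1551 bp), with 9.75 and 9.49 in the egg samples, 6.88 and 6.91 in the larval samples, 8.80 and 8.04 in the pupal samples and 4.68 and 2.55 in the adult samples. In both, the 2 adult values lay outside the range of the other 6. For the egg, the highest region was NC_015768.1 from 2801656 to 2802881 (1226 bp), with 5.45 and 5.19 in the egg samples, 2.29 and 2.80 in the larval samples, 2.62 and 2.95 in the pupal samples and 2.19 and 2.098 in the adult samples. Both egg values were the highest, but no base of this region was covered in all 8 lists and the strongest summits of the samples were spread over 734 bp. The lowest, NC_015773.1 from 4182366 to 4184220 (1855 bp), had 5.32 and 5.56 in the egg samples, 6.64 and 5.80 in the larval samples, 6.22 and 5.43 in the pupal samples and 7.05 and 4.91 in the adult samples. As fold enrichment the egg values overlapped the others, while the ranks separated them.

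The point of highest accessibility was fixed in many of the regions and moved in some. The strongest summits of the 8 samples lay within 100 bp in 748 regions (48.7%), and their median range was 108 bp. In 296 regions (19.3%) they spread over more than 500 bp, which narrow regions could do less often by their size, and 67.5% of those kept all 8 within 100 bp. The median strongest summit fell in the middle part of the span, with quartiles at 33.9% and 65.2% of its length. Regions where the strongest summit of a single stage lay elsewhere were rare. By a rule set after the data were seen, both samples of the stage had to be within 100 bp of each other and more than 200 bp from the strongest summit of the other 6 samples. With the egg samples apart this held for 5 regions, 0.325% against a background of 0.164% over the 4880 constant regions. It held for 15 with the larval (0.976% against 0.389%), 12 with the pupal (0.781% against 0.328%) and 16 with the adult samples apart (1.04% against 0.410%). The background includes the broad regions but is mostly narrow regions, in which a summit has less room to move. Narrow regions alone had 0.0897% for egg and 0.120% for each other stage. Among the broad regions with a stage apart, the other 6 samples were within 100 bp of each other in 2, 9, 9 and 4, in the same order. No background was formed for these last counts.

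From each of those last sets the region with the largest shift is given, chosen after its values were seen. At NC_015777.1 from 798 to 2493 (1696 bp) the strongest summit lay 561 and 564 bp from the first base in the pupal samples, and 1462 to 1531 bp from it in the other 6. Fold enrichment at these summits was similar, 6.52 and 7.82 in the pupa and 4.86 to 9.94 elsewhere. Every sample had a summit at 524 to 570 bp and another at 1462 to 1531 bp. In the pupal samples the latter had 5.22 and 7.36, so the order of the summits differed and not their presence. At NC_015771.1 from 2113146 to 2114579 (1434 bp) the strongest summit lay at 1007 and 1020 bp in the adult samples and at 212 to 254 bp in the others. The adult samples also had a summit at 160 and 204 bp, with 2.97 and 2.66 against 3.49 and 2.68 at the strongest. At NC_015764.1 from 4476153 to 4477639 (1487 bp) the strongest summit lay at 230 and 258 bp in the egg samples and at 1122 to 1182 bp in the others. The egg samples also had a summit at 1153 and 1159 bp, with 6.39 and 4.14 against 6.69 and 5.40. At NC_015771.1 from 1695829 to 1696973 (1145 bp) the strongest summit lay at 227 and 203 bp in the larval samples and at 818 to 858 bp in the others. In that region every sample had exactly 2 summits in 1 interval, the first at 203 to 238 bp and the second at 818 to 874 bp, and a core of 981 bp was shared. Fold enrichment at the first and second summit was 4.95 and 4.43 in larva replicate 1 and 5.35 and 5.0 in larva replicate 2, whereas in the other 6 samples the second was the higher, with the smallest difference in pupa replicate 1 (6.10 and 6.16). Both summits were thus called in every sample, and their order differed in the larva.

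A small set of the regions had no common core. In 43 regions (2.80%) no base was covered in all 8 lists, and the intervals of the samples were joined only through overlap with those of other samples. The first 3 of them by name were NC_015762.1 from 5107708 to 5108883 (1176 bp), NC_015763.1 from 2906489 to 2908161 (1673 bp) and NC_015763.1 from 531776 to 533600 (1825 bp). The second of these had a fold enrichment of 6.49 and 3.91 in the egg samples, 2.16 and 2.43 in the larval samples, 7.90 and 6.34 in the pupal samples and 4.38 and 4.201 in the adult samples. Its larval intervals covered 22.1% and 11.95% of the span, and its strongest summits were spread over 944 bp. The other 1494 regions kept at least 1 base under a peak in every sample.

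The regions were distributed over all 18 placed chromosomes. Counted per Mb up to the last peak of a chromosome, density ran from 5.58 on NC_015776.1 to 11.2 on NC_015778.1, with 7.09 overall. On the same chromosomes, broad regions made up 25.9% and 35.7% of all constant regions, and over the 18 chromosomes this share ran from 25.1% to 36.2%. The median distance from a broad region to the nearest other one was 30.4 kb, and from a narrow constant region to the nearest broad one 31.9 kb. Within 10 kb of another broad region lay 309 of them (20.1%), compared with 21.2% of the narrow constant regions. Only 26 had another within 1 kb.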

How the data were processed

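ATAC-seq peak lists of 8 whole-body samples were used. The authors filtered paired reads with SOAPnuke, aligned them to Bter_1.0 with Bowtie2 2.2.5, allowing several alignments per read, and called the peaks of every sample on its own with MACS2 2.2.5 and summit splitting, with no control library or duplicate removal stated. Per the deposited lists, a summit has a fold enrichment over its surroundings, the −log10 of its p-value and q-value, and a score, and the authors normalized none of these between samples. The score was not used. The smallest −log10 (q value) of a list was 1.30 or 1.31.

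Starts were converted to count from 1. Intervals were counted once, at their best summit, and merged on contigs named NC_. Groups came from the stage in the labels. The labels name the samples only as replicates. An exact permutation p is the share of groupings of these samples into pairs that gave at least the difference of the stages. The regions, the measures and the comparison sets were chosen with earlier results of these data known. Named regions were the 5 widest, the 5 with the highest lowest percentile, for each stage the largest gap in each direction, the 3 with most summits, the first 3 by smallest core share, and 3 on each side of 1000 bp. The merging, the exact tests and the counts were tested on simulated data. No genome or annotation of Bter_1.0 was used, so gene context and sequence were not analysed here. Alternatives covered the span, a q-value limit, the overlap, the measure of strength, the reference of the ranking and each sample left out. Leaving out both larval or both egg samples, requiring a common base, and 1 interval per region were added after seeing the data. Computations used Python 3.11.15, numpy 2.4.6, scipy 1.17.1, pandas 2.3.3 and matplotlib 3.10.9.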

Additional observations from a re-analysis of the deposited data

How the results depend on the processing

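The number of broad constant regions was 2519 with a minimum of 800 bp and 327 with 1500 bp, and 1259 to 1734 with 1 sample left out. With a minimum of 1500 bp egg, larval, pupal and adult samples had 2.96, 2.47, 3.34 and 3.20 summits per region. The median percentile, from egg to adult, was 88.1, 79.2, 88.8 and 89.99 among intervals of placed chromosomes alone, and by −log10 (P value) it was 88.2 for egg, 90.7 for pupa and 88.8 for adult samples.

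The 3 differences between same-stage and different-stage pairs kept their sign in every setting run. With 1 sample left out they were 0.110 to 0.185 for the correlation, 0.0594 to 0.0938 for the Jaccard index and 10.4 to 26.3 bp for the summit distance, with exact permutation p between 0.00952 and 0.133. With 1500 bp the summit distance differed by 18.9 bp (exact permutation p = 0.0571). Leaving out both larval samples, chosen after seeing the data, gave 0.0842, 0.0277 and 16.3 bp (exact permutation p = 0.133, 0.0667 and 0.0667), and leaving out both egg samples gave 0.206, 0.109 and 26.9 bp (exact permutation p = 0.0667 each). The smallest p of 6 samples is 0.0667, which the correlation without the larva did not reach. The replicate block, which pairs only samples with different replicate numbers, left the values at 0.137, 0.0747 and 18.0 bp with an exact permutation p of 0.0417, the smallest for 24 ways. The labels do not say that a number marks a shared batch.

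Counts of regions where a stage stood apart moved most. Ranked among all intervals of a list, they were 10 for egg below, 1 for larva above, 958 for larva below, 247 for pupa above, 16 for pupa below, 243 for adult above, 8 for adult below and 1191 for any stage. By −log10 (P value) they were 36 for egg below and 153 for larva above. With 1 sample left out they ran from 35 to 154 for egg above, 74 to 251 for egg below, 297 to 554 for larva above, 149 to 303 for larva below, 147 to 243 for pupa above, 148 to 347 for pupa below, 84 to 189 for adult above, 76 to 161 for adult below and 940 to 1171 for any stage. Fewer samples to exceed raise these counts by construction.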

Other observations

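Besides the broad constant regions, 902 merged regions of placed chromosomes spanned 1000 bp or more but lacked an interval in at least 1 list. Larva replicate 2 lacked 753 of them and larva replicate 1 lacked 546, against 97 to 235 for the other 6 samples. In 401 of the 902 an interval was present in all 6 samples of the egg, pupa and adult, so that only larval lists lacked them, and 272 were present in exactly 7 lists.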
